A study of Mus musculus with 19 samples.

Results

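Zbtb7b encodes ThPOK, a zinc-finger transcription factor of the BTB family that directs thymocytes selected on MHC class II toward the CD4+ helper T cell lineage. Its level and detection were followed across the thymocyte types of 17 mice, as the 1 gene row named Zbtb7b among the 28692 genes that the files list. Each cell was measured by CITE-seq, which counts the RNA of single cells together with antibodies that carry DNA tags, in unique molecular identifiers (UMIs, one per captured molecule).

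There were 5 wild-type C57BL/6 mice and 2 mice of each of 6 lineage-restricted genotypes, all female and 4 to 8 weeks old. Of these, 3 genotypes select T cells mainly toward the CD4+ lineage and are called CD4-fated. In AND and OT-II mice a T cell receptor (TCR) transgene sees peptide on MHC class II, while MHCI-/- mice (B2m-/-) lack surface MHC class I and build their own varied receptors. The other 3 are the mirror image and are called CD8-fated. MHCII-/- mice (H2-Ab1-/-) have no MHC class II and a varied repertoire, and the receptor transgenes of F5 and OT-I mice see MHC class I. AND and F5 mice also lacked Rag1, which assembles endogenous TCR genes, so that every T cell carried the transgenic receptor; the AND transgene came from a B10 background and the F5 transgene was driven by CD2 sequences. OT-I and OT-II mice kept their Rag genes and can express an endogenous TCR beside the transgene. Thymocytes of MHCI-/-, MHCII-/- and wild-type replicates 1 to 3 were sorted for CD5+TCRb+ cells, and all others were unsorted. Both OT genotypes and wild-type replicates 4 and 5 were measured in the third experiment, at another site, so that site and genotype family cannot be told apart. Replicate 1 of the AND, F5 and wild-type mice was measured in the first experiment and all remaining mice in the second. In AND and F5 mice the replicate number is thus also the experiment. The mouse was the replicate throughout.

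In the thymus, CD4+CD8+ double-positive (DP) cells whose TCR binds self peptide on MHC receive a selection signal, pass through a CD4+CD8lo stage, and become CD4 or CD8 single-positive (SP) cells. ThPOK represses CD8-lineage genes and antagonizes Runx3, the factor that directs the CD8+ lineage, and RUNX proteins in turn repress Zbtb7b through a silencer upstream of the gene. Gata3 and Tox act before ThPOK in CD4+ development. Outside conventional CD4+ cells, ThPOK is also known from regulatory T cells, invariant natural killer T (NKT) cells and some gamma-delta T cells.

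After filtering, 69242 cells from 85389 barcodes were kept, 1784 to 7687 per lane of the droplet chip, with a median depth of 1498.5 to 7204 RNA UMIs per cell over the 19 lanes. A pair of lanes shared at most 12 barcodes among the cells kept, with a median of 3 over 171 pairs. Zbtb7b was a sparse message at this depth. It gave 6173 UMIs in all, 6.95% of the cells held any, 78.2% of those held exactly 1, and the highest count in a cell was 7. A cell without a UMI was therefore not a cell shown to lack the RNA, and levels were compared per mouse as CPM, the UMIs of a gene for every 1000000 UMIs of the summed cells. A lower level of a sum can come from fewer cells that carry the RNA or from less RNA per cell, which cannot be told apart in a sum.

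Over all cells kept, the 2 AND mice had 34.1 and 41.8 CPM and the 2 MHCI-/- mice 36.0 and 49.3 CPM. The OT-II mice had 17.03 and 19.8 CPM, the OT-I mice 6.80 and 10.5 CPM, and the MHCII-/- mice 2.19 and 2.47 CPM. The F5 mice had 0 UMIs in 2429 cells and 2 UMIs in 4199 cells, the lowest of any genotype. Wild-type mice ran from 11.02 CPM in unsorted replicate 4 to 32.3 CPM in sorted replicate 2. These totals move with the mix of stages in a sample, so the gene was followed within stages set by antibodies alone.

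Zbtb7b lies on chromosome 3 at chr3:89377644-89394776 of the mm10 (GRCm38) build, on the minus strand (ENSMUSG00000028042, GENCODE vM21). An antisense gene, Gm15417 (ENSMUSG00000074466, chr3:89391850-89398779, plus strand), crosses its 5′ end. They share 2927 bases, of which 116 are exonic in both. The 250 bases that precede 2 annotated starts in this region are shown because both transcripts come up again with the measurements; RefSeq gives the starts on GRCm38.p6, neither stretch is exonic in either gene, and capitals mark the letters TGTGGT, the core that RUNX proteins bind, or ACCACA on the other strand.
Zbtb7b internal start, chr3:89387672-89387921, minus strand: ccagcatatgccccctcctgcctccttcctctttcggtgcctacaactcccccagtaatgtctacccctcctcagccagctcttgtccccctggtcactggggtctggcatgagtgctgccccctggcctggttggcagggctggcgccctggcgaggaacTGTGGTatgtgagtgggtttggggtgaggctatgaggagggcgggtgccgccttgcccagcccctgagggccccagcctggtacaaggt
Gm15417 start, chr3:89394040-89394289, plus strand: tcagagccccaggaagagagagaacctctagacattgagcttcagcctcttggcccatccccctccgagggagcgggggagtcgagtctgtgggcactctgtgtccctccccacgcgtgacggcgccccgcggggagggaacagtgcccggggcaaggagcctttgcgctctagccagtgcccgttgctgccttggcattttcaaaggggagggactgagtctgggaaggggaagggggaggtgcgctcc
The core stood once before the internal start of Zbtb7b and not in the stretch before Gm15417. It was also absent from the 300 bases around the outer RefSeq start of Zbtb7b. That start lies within the GENCODE bounds of the gene, whose outer end at 89394776 was not scanned. Among all 32851 start windows of 300 bases, 16.8% hold it. The letters AGATAA or TTATCT, which GATA factors bind, were in none of the 4 windows of these genes and in 11.2% of all windows. A match in such letters is a description and not a bound site.

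Stages were set by antibody. DP1 (CD4+CD8a high, CD69-, CD127-) are named as DP cells before selection and DP2 (CD69+) as those just signaled. CD4+CD8lo cells (CD69+) are named as the intermediate, and DP3 (CD69+CD127+TCRb+) as a late DP stage. CD4 SM and CD8 SM are semimature SP cells (CD69+), and CD4 Mat and CD8 Mat mature ones (CD69-). In wild-type mice RNA of genes outside the gates followed the names of DP1, CD4 SM, CD4 Mat and CD8 Mat. Rag1, which is active before selection, stood at 1453 CPM in DP1 and 28.4 CPM in CD4 SM. S1pr1, which lets mature cells leave the thymus, stood at 336 CPM in CD4 Mat, and Nkg7, a cytotoxic-granule gene of CD8+ cells, at 558 CPM in CD8 Mat. DP3 was mixed. Nkg7 was higher there than in CD4+CD8lo cells (142 against 32.5 CPM), but so was Rag1 (126 against 50.1 CPM), which goes against a purely late stage.

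In wild-type thymocytes Zbtb7b was low before selection, came up at the CD4+CD8lo stage, was highest in semimature CD4 cells and was near the DP1 level in CD8 cells. DP1 cells of replicates 1 to 5 had 3.03, 2.52, 1.14, 0.457 and 1.70 CPM, a mean of 1.77 ± 1.03 (SD, n = 5), with 58 UMIs in 15197 cells. DP2 cells had 0, 3.75, 10.6, 5.02 and 5.64 CPM (5.00 ± 3.82). CD4+CD8lo cells had 38.1, 33.3, 59.1, 52.7 and 86.5 CPM (53.9 ± 21.0). The lowest CD4+CD8lo mouse stood above the highest DP2 mouse. CD4 SM cells had 90.7, 77.6, 61.6, 98.2 and 111.3 CPM (87.9 ± 19.1), and CD4 Mat cells 52.9, 54.5, 43.1, 73.2 and 79.4 CPM (60.6 ± 15.1). In each of the 5 mice the semimature value was the higher one, although the ranges of both stages overlapped and the difference was not tested. CD8 SM cells had 0, 2.30, 0, 0.846 and 3.67 CPM (1.36 ± 1.60) and CD8 Mat cells 0, 2.80, 1.73, 4.07 and 1.75 CPM (2.07 ± 1.505). Both ranges overlapped that of DP1, and every one of the 10 CD8 values was below every CD4 SP value. In order of their means the stages ran from CD8 SM, DP1, CD8 Mat, DP2 and DP3 through CD4+CD8lo and CD4 Mat to CD4 SM. CD8 SM, DP1 and CD8 Mat differed by less than their SDs, as did CD4+CD8lo and CD4 Mat, and the ranges of DP2 and DP3 overlapped.

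**Figure D1:**
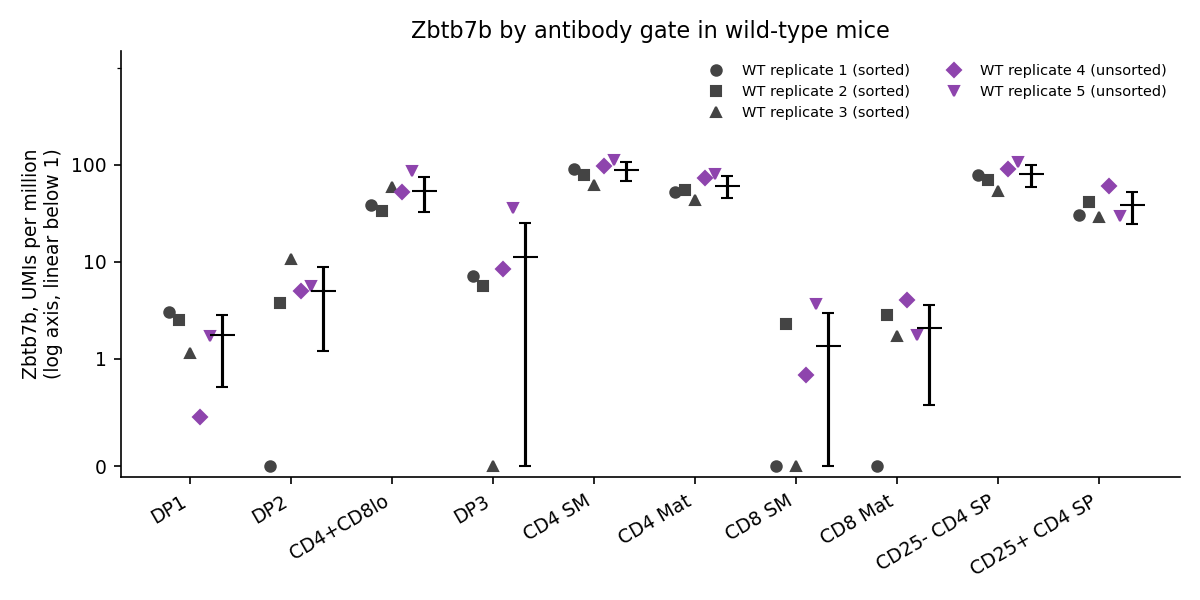
Zbtb7b in CPM (log axis, linear below 1) by antibody gate in 5 wild-type mice, 1 point per mouse, with bars for the mean and SD (lower bars end at 0). The CD8 gates and DP1 lie at 4.07 CPM or below in every mouse, and CD4+CD8lo and CD4 gates at 33.3 CPM or above except in CD25+ cells, which start at 28.9 CPM.

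Each rise was tested on sums per mouse with each mouse as a block, by edgeR's quasi-likelihood test over all genes with Benjamini-Hochberg adjustment. From DP1 to CD4+CD8lo the log2 difference was 5.45 (SE 0.36, adjusted p = 1.19e-07, higher in 5 of 5 mice), where 47.1% of the genes tested passed the threshold of 0.05. From DP1 to CD4 Mat it was 5.998 (SE 0.32, adjusted p = 1.7e-09, 5 of 5 mice), where 56.3% passed. Without wild-type replicate 4, which had the lowest DP1 level, these differences were 4.79 and 5.204, both still called. With so many genes past the threshold, the size sets Zbtb7b apart more than the call, as its absolute change ranked above 99.8% and 99.2% of genes. From DP1 to DP2 the difference was 1.72 (SE 0.62, adjusted p = 0.0494, higher in 4 of 5 mice), where 35.7% of genes passed, on 30 UMIs in DP2 against 58 in DP1. That call was lost without wild-type replicate 3, 4 or 5 (1.52, 1.03 and 1.74, adjusted p = 0.125, 0.292 and 0.0929) and with DESeq2 (1.53, adjusted p = 0.0933). It was kept without replicate 1 or 2, without the low-count filter (1.66, adjusted p = 0.00150), with doublets kept (2.31, 0.00997), with raised or lowered antibody thresholds (2.23 and 1.96) and over all 17 mice (2.47, adjusted p = 2.61e-06), so in wild-type mice alone the call sits close to its threshold while the direction was the same in each of these fits. CD8 SM and CD8 Mat could not be tested against DP1, since 5 and 11 UMIs fell below the low-count filter, where 47.4% and 48.7% of the genes that did pass differed. Without the filter their log2 differences from DP1 were -0.06 and 1.01 (adjusted p = 0.967 and 0.332, edgeR).

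Between the mature lineages the gap was wide. CD8 Mat cells were lower than CD4 Mat cells (log2 difference -4.57, SE 0.25, adjusted p = 1.31e-13, edgeR, lower in 5 of 5 mice), in a comparison where 21% of genes passed, 9.91% of all genes higher in CD4 Mat and 11.1% higher in CD8 Mat cells. The share of cells with any Zbtb7b UMI was 25.6% of 1608 CD4 Mat cells and 1.61% of 623 CD8 Mat cells, although the CD8 cells were the more deeply read, with a median of 6766 against 5154 UMIs. The other CD4-lineage genes on the list were lower in CD8 Mat cells too in 4 of 5 cases. The log2 difference was -5.00 for Cd4 itself and -4.60 for Cd40lg, the helper signal to B cells, while Socs1, a brake on cytokine signaling that ThPOK is known to induce, was at 83.8 against 87.5 CPM and was not called. All 6 CD8-lineage genes that passed the filter, of 7 listed, were higher in CD8 Mat cells, Nkg7 by 6.24, Cd8a by 4.96 and the granule gene Prf1 by 1.95. Among 13 factors listed as upstream of Zbtb7b or tied to its silencer, 2 were higher in CD8 Mat cells, Runx3 by 2.65 and Tcf12 by 0.38, and 6 were lower, among them Runx1 (-1.34) and Gata3 (-1.11). The median log2 difference was 0.01 over all genes, -0.16 for the 13 factors, -4.60 for the CD4-lineage genes and 4.75 for the CD8-lineage genes. The gates use CD4 and CD8a protein, so that Cd4, Cd8a and Cd8b1 restate them. Zbtb7a, the closest relative of Zbtb7b, was 0.42 higher in CD8 Mat cells, and Zbtb7c was under the filter.

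DP3 cells, which carry both coreceptors like DP1 and DP2 but express more TCR, had 7.11, 5.60, 0, 8.40 and 35.4 CPM in wild-type replicates 1 to 5 (11.3 ± 13.9). These rest on 14 UMIs in 311 cells, 7 of them in replicate 5. In every mouse the value was below that of CD4+CD8lo cells of the same mouse, although the ranges over mice overlapped (log2 difference -2.33, SE 0.34, adjusted p = 1.85e-04, edgeR, 3.48% of genes past the threshold, 1.76% higher in CD4+CD8lo and 1.73% higher in DP3). Without the mouse block the difference was -2.37 with an adjusted p of 0.127, so the call depends on comparing within mice. Of the 13 upstream factors, 6 were lower and 1 higher in DP3, and the 3 CD8-lineage genes past the filter were all higher. Rag1 stood at 126 CPM in pooled wild-type DP3 cells and at 50.1 CPM in CD4+CD8lo cells. Whether earlier DP cells sat in the DP3 gate was not tested.

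In the lineage-restricted mice the levels split by genotype at the CD4+CD8lo stage. There the CD4-fated mice had 83.1 and 102.0 CPM (AND), 52.7 and 80.9 CPM (MHCI-/-), and 113.9 and 136.1 CPM (OT-II). Of the CD8-fated mice, OT-I had 28.9 and 38.7 CPM and MHCII-/- 2.43 and 1.85 CPM, while F5 mice held only 3 and 1 such cells and gave no value. All 6 CD4-fated mice were above all 4 CD8-fated mice, with means of 94.8 ± 29.1 (SD, n = 6) and 17.98 ± 18.7 CPM (SD, n = 4). With the genotype family as a covariate the log2 difference was 2.93 (SE 0.45, adjusted p = 0.00963, edgeR), 1 of 21 genes called higher in CD4-fated mice, or 0.237% of the 8865 tested, with 0.169% called higher in CD8-fated mice and 0.406% in either direction. Since F5 gave no value, the contrast rests on the MHC-deficient and OT families. It lost its call without MHCII-/- replicate 1 (2.71, adjusted p = 0.0701), without the family covariate (2.41, adjusted p = 0.235), and where the gate left out CD69 (3.09, adjusted p = 0.274, an alternative added after seeing the data).

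Within the families the size of the lineage difference was unequal. It was 5.02 between MHCI-/- and MHCII-/- and 1.87 between OT-II and OT-I. The difference between families, OT against MHC-deficient, was -3.15 (SE 0.50, unadjusted p = 1.13e-04), which did not pass over all genes (adjusted p = 0.0774, edgeR, 0.101% of genes past the threshold). This comparison of families was chosen after the data were seen, so its p values are a description. In DP2 cells the 2 family differences were 3.24 and 0.72 (difference -2.52, adjusted p = 0.520; 0.122% of genes). The OT mice were unsorted, measured at another site and gated at lower CD69 and TCRb cutoffs, which cannot be told apart from the family. They also kept their Rag genes. The paper states that a few cells of lineage-restricted mice take the other lineage, above all in such transgenic mice. In OT-I mice 230 cells fell in the CD4 SM gate, at 62.3 CPM. The part of such cells in the OT-I CD4+CD8lo values was not tested. The 2 CD8-fated genotypes did not overlap here. MHCII-/- CD4+CD8lo cells held 4 and 6 UMIs in 347 and 571 cells, and OT-I cells 80 and 55 UMIs in 421 and 489 cells. Shares of cells with a UMI were 1.15% and 0.701% in MHCII-/- against 14.3% and 9.41% in OT-I.

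**Figure D2:**
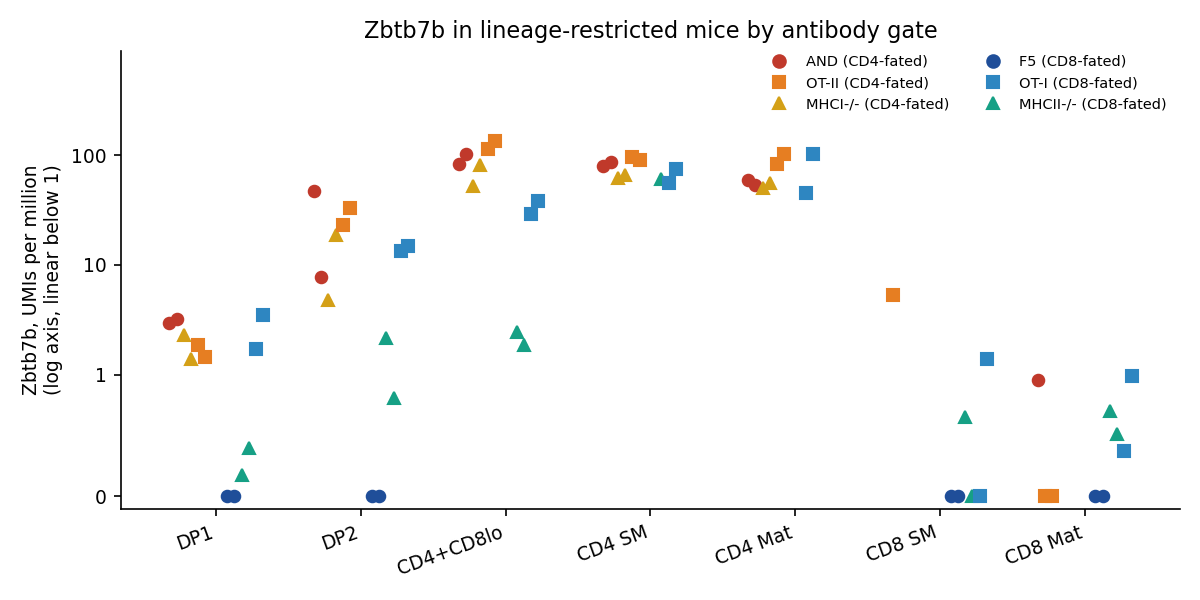
Zbtb7b in CPM (log axis, linear below 1) by antibody gate in the lineage-restricted mice, 1 point per mouse with at least 20 cells in the gate, CD4-fated left and CD8-fated right of each tick. OT-I mice (28.9 and 38.7 CPM) and MHCII-/- mice (2.43 and 1.85 CPM) stand apart at the CD4+CD8lo stage and F5 mice lie at 0 in every gate shown.

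Shares of cells with a UMI were also compared after each cell was thinned to 2500 UMIs, so that depth was equal among the cells compared. Cells with fewer UMIs were left out, 191 of 1471 CD4-fated and 208 of 1832 CD8-fated cells in the CD4+CD8lo gate. In this gate 23.6% ± 14.9 (SD, n = 6) of thinned cells held Zbtb7b in CD4-fated and 4.20% ± 4.65 (n = 4) in CD8-fated mice. The groups did not overlap (two-sided exact permutation test, p = 0.00952, adjusted p = 0.0379 over 5 gates). For groups of this size that p is the smallest the test can give, and leaving out a mouse raises the smallest p. Before thinning the shares over all cells were 29.7% and 6.38%. The highest thinned share, 52.4% in OT-II replicate 2, rests on 21 of its 146 cells, and without that mouse the difference was 13.7 percentage points (adjusted p = 0.0433, exact permutation test). The adjusted p was between 0.0595 and 0.0758 without AND replicate 1 or 2, MHCI-/- replicate 1, MHCII-/- replicate 1 or 2 or OT-I replicate 2, and 0.0571 and 0.0794 at 1500 and 4000 UMIs, so that this test sits close to its threshold. In the DP2, CD4 SM and CD8 Mat gates the groups overlapped and were not called, with 4.23% against 1.30% in DP2 (adjusted p = 0.101, exact permutation test), 18.3% against 12.5% in CD4 SM (0.119) and 0% against 0.135% in CD8 Mat cells (0.714).

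Before that stage the 2 groups were nearer. DP1 cells had 2.95 and 3.21 CPM in AND, 2.28 and 1.40 in MHCI-/-, 1.86 and 1.45 in OT-II, 1.70 and 3.50 in OT-I, and 0.176 and 0.401 CPM in MHCII-/- mice. F5 mice had 0 UMIs in 4448 DP1 cells, which at the limit of 3 counts allows a level of up to 0.1104 CPM and a share of cells with a UMI of up to 0.0674%. Such a share limits cells with a UMI and not cells that express the gene. The OT-I values overlapped those of CD4-fated mice, and all MHCII-/- and F5 values lay below them. Zbtb7b, with 54 against 13 UMIs, was under the low-count filter in this gate, where 0.0401% of genes passed. Tested without that filter the log2 difference was 2.30 (adjusted p = 0.0129, edgeR). With doublets kept, where the gene passed the filter, it was 3.01 with an adjusted p of 0.999. Thinned shares, with 1803 of 5873 and 644 of 7478 cells left out as too shallow, were 0.618% ± 0.290 and 0.148% ± 0.249 (SD, n = 6 each; exact permutation p = 0.0152, adjusted p = 0.0379), and this call was lost without AND replicate 1 or 2, MHCI-/- replicate 1 or any 1 mouse of F5 or MHCII-/- (adjusted p = 0.0606 to 0.0758). At 1500 UMIs the adjusted p was 0.721, and at 4000 UMIs 0.244.

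In DP2 cells the spread within groups was large. The values were 47.7 and 7.78 CPM in AND, 4.76 and 18.6 in MHCI-/-, 22.9 and 33.1 in OT-II, 13.4 and 14.8 in OT-I, 2.17 and 0.809 in MHCII-/-, and 0 in both F5 mice, with 98 and 91 cells. The log2 difference of CD4-fated against CD8-fated mice was 2.28 (SE 0.60, adjusted p = 0.156, edgeR; 0.364% of genes past the threshold), and the groups overlapped. DESeq2 gave 2.60 with an adjusted p of 0.0160, and the fit without a low-count filter 2.26 with 7.31e-07. Runx3 and Nkg7 were lower in CD4-fated DP2 cells, with log2 differences of -1.95 and -3.74 (adjusted p = 2.9e-04 for both). Gata3 stood at 287 against 172 CPM, a difference of 0.69 that was not called (adjusted p = 0.400).

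Among CD4 SP cells the ranges of both fates overlapped. CD4 SM cells had 79.7 and 86.7 CPM in AND, 61.9 and 66.0 in MHCI-/-, 97.6 and 90.6 in OT-II, and 55.5 and 75.8 in OT-I mice. MHCII-/- mice, with 11 and 22 such cells, had 33.4 and 60.7 CPM. The difference between the fates was 0.54 (SE 0.24, adjusted p = 0.836, edgeR; 0.0653% of genes past the threshold). CD4 Mat cells had 50.6 to 104.0 CPM in 6 CD4-fated mice and 45.4 and 103.9 CPM in the OT-I mice, a fitted difference of 0.80 (SE 0.38, adjusted p = 0.717; 0.0758% of genes) although the means, 67.9 and 74.7 CPM, ran the other way. OT-I replicate 2 rests on 8 UMIs in 20 cells, and the fitted difference was 0.18 without OT-I replicate 1, 1.12 without OT-I replicate 2 and 0.31 without the family covariate, none called. The rare CD4 SP cells of CD8-fated OT-I mice carried Zbtb7b, in replicate 2 within the range of the CD4-fated mice and in replicate 1 below the lowest of them in both gates. A UMI was found in 22.6% of 230 OT-I CD4 SM cells against 29.8% of 3689 in CD4-fated mice.

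Within the CD8-fated mice the gene was higher at the CD4+CD8lo stage than before or after it. CD4+CD8lo cells were 3.55 above DP1 cells of the same mice (SE 0.35, adjusted p = 2.89e-05, edgeR, higher in 4 of 4 mice; 38% of genes past the threshold), although the groups overlapped. CD8 Mat cells were lower than CD4+CD8lo cells (log2 difference -4.82, SE 0.62, adjusted p = 0.00108, lower in 4 of 4 mice; 29.6% of genes). F5 mice entered neither fit. In OT-I mice the 3 stages stood at 1.70, 28.9 and 0.371 CPM in replicate 1 and 3.50, 38.7 and 0.992 CPM in replicate 2. In MHCII-/- mice they stood at 0.176, 2.43 and 0.702 CPM and at 0.401, 1.85 and 0.509 CPM. Without either OT-I mouse the first fit gave no value, since Zbtb7b fell below the low-count filter. OT-I mice can express an endogenous TCR, and the part of cells on the other lineage in their CD4+CD8lo values was not tested.

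Late CD8-fated cells gave few Zbtb7b UMIs. DP3 cells of CD8-fated mice held 0 UMIs in 654 cells, which at 3 counts allows a level of up to 0.681 CPM and a share of cells with a UMI of up to 0.459%, against 9 UMIs in 62 DP3 cells of CD4-fated mice. CD8 SM cells held 3 UMIs in 1107 cells and CD8 Mat cells 10 UMIs in 2943 cells, or 0.272% of cells at a median depth of 6715 UMIs. CD8 Mat sums had 0 to 0.992 CPM over the 6 mice, and those of F5 mice 0 UMIs in 892 cells. Zbtb7b was under the low-count filter between the fates in these gates, where 0.153%, 0.114% and 1.1% of genes passed for DP3, CD8 SM and CD8 Mat. Without the filter it was not called in any of them (adjusted p = 0.865, 1 and 0.967, edgeR), with 1, 1 and 3 CD4-fated mice in the fits. With lower antibody thresholds the DP3 gate held 342 cells of 6 CD4-fated mice at 18.5 to 89.3 CPM, and 1698 cells of 6 CD8-fated mice, where OT-I mice had 6.33 and 8.65 CPM and the other 4 mice 0 UMIs. These groups did not overlap (log2 difference 4.81, SE 0.63, adjusted p = 9.49e-04, edgeR), so in DP3 the call depends on where the gate is drawn. The lowered thresholds include that for high CD8a, so that cells of the main CD4+CD8lo gate can enter this wider DP3 gate. Pooled CD4+CD8lo cells stood at 88.4 CPM in CD4-fated mice. The part of such cells in the call was not tested. CD8 Mat cells, which should lack the gene, served as the background of the same lanes. CD4+CD8lo cells stood above it in each of the 4 mice, by a wide margin in OT-I mice. In MHCII-/- mice they stood at 2.43 and 1.85 CPM against 0.702 and 0.509 CPM, on 4 and 6 against 2 and 2 UMIs, and the 95% intervals of both stages overlapped in each mouse.

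At the CD4+CD8lo stage other genes of the pathway were compared between the fates in the same fit, where 0.237% of all genes were called higher and 0.169% lower in CD4-fated mice. Of the 13 upstream and silencer factors, which all passed the filter, none was called higher and Runx3 was called lower in CD4-fated mice, with 67.9 against 191 CPM (log2 difference -1.53, adjusted p = 0.00590). Gata3 stood at 212 and 104 CPM, a difference of 1.08 that was not called (adjusted p = 0.156); MHCII-/- mice had 80.2 and 80.01 CPM and OT-I mice 90.5 and 163.9 CPM, and the MHCI-/- and AND mice were above all of them, while OT-II mice had 145.5 and 191 CPM and overlapped OT-I. The DNA-bending factor Tox was at 648 and 619 CPM, and Myb, Patz1 and Runx1 differed by -0.65, -0.22 and -0.45, none called. Of 5 CD4-lineage genes 4 passed the filter and none was called, Cd40lg among them at 132 against 48.2 CPM (1.39, adjusted p = 0.419). Of 7 CD8-lineage genes the 3 past the filter were all lower in CD4-fated mice, with log2 differences of -2.14 for Cd8a, -3.18 for Nkg7 and -1.37 for Cd8b1. The median log2 difference was -0.14, -0.03 and -2.14 for these 3 lists and -0.01 over all genes. CD8a protein was bounded in this gate but not equal within it, which touches Cd8a and Cd8b1.

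**Figure D3:**
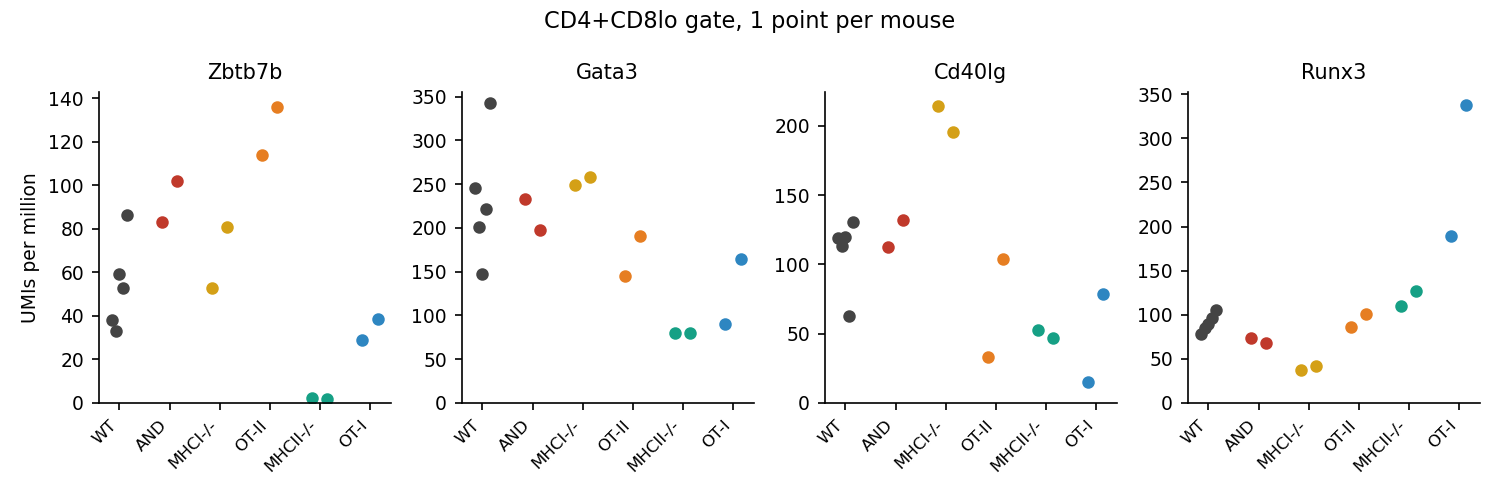
CPM of Zbtb7b, Gata3, Cd40lg and Runx3 in CD4+CD8lo cells, 1 point per mouse, axes starting at 0. MHCII-/- mice are lowest for Zbtb7b and Gata3, and OT-I replicate 2 is highest for Runx3 while its Zbtb7b is 38.7 CPM.

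Zbtb7b and Runx3 were seen in the same CD4+CD8lo cells. In OT-I mice 106 cells held Zbtb7b and 41.5% of them also held Runx3, against 52.7% of the other cells. In MHCII-/- mice 8 cells held Zbtb7b, 4 of them with Runx3, against 33.4% of the other cells. In wild-type mice the shares were 11.4% of 254 and 20.7%, and in CD4-fated mice 15.7% of 426 and 20.9%. Cells with Zbtb7b were the deeper ones, with a median of 5057 against 3820 UMIs in OT-I, 5414 against 4874 UMIs in MHCII-/- and 4283 against 3737 UMIs in wild-type mice. These shares are counts over cells of few mice and were not tested.

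The genes whose sums ran most like Zbtb7b over 112 gates of single mice were Gm15417 (Pearson r = 0.92 on log2(CPM + 1)), Cd40lg (0.80), Sytl2 (0.75), Tmem64 (0.74), Tspan32 (0.73), St8sia6 (0.72), Ptgir (0.71) and Mllt3 (0.71), out of 9014 genes. Cd8a (-0.83) and Cd8b1 (-0.81) ran most against it. The sums share mice, lanes and depth, and the gates use CD4 and CD8a, so no p is given.

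Gm15417, the antisense neighbor, was lower than Zbtb7b over the pooled wild-type cells of each stage and, unlike it, was highest in CD4+CD8lo cells. It stood at 0.905 CPM in DP1, 39.3 in CD4+CD8lo, 35.0 in CD4 SM and 19.1 in CD4 Mat cells, where Zbtb7b stood at 1.07, 47.4, 85.5 and 56.1 CPM over the same pooled cells. Single mice did not all follow that order, since in CD4+CD8lo cells Gm15417 was the higher of the pair in wild-type replicate 2 (40.5 against 33.3 CPM) and replicate 3 (60.8 against 59.1 CPM). In CD4+CD8lo cells it was 1.22 and 1.85 CPM in MHCII-/- and 12.7 and 31.6 CPM in OT-I mice. Among wild-type CD4+CD8lo cells 31.5% of those with Zbtb7b also held Gm15417, against 7.94% of the others. In CD4 Mat cells the shares were 10.2% and 9.19%. Of the 2 RefSeq starts of Gm15417, 1 lies 912 bases before the outer RefSeq start of Zbtb7b, on the opposite strand. Both lie within the GENCODE bounds of Zbtb7b. The stretch that both genes cover lies at the 5′ end of each, and their 3′ ends lie 21135 bases apart. The paper names a 10x Genomics 3′ v3 protocol. How strand entered the counting was not stated, and what reads from the shared stretch add to the counts was not tested.

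**Figure D4:**
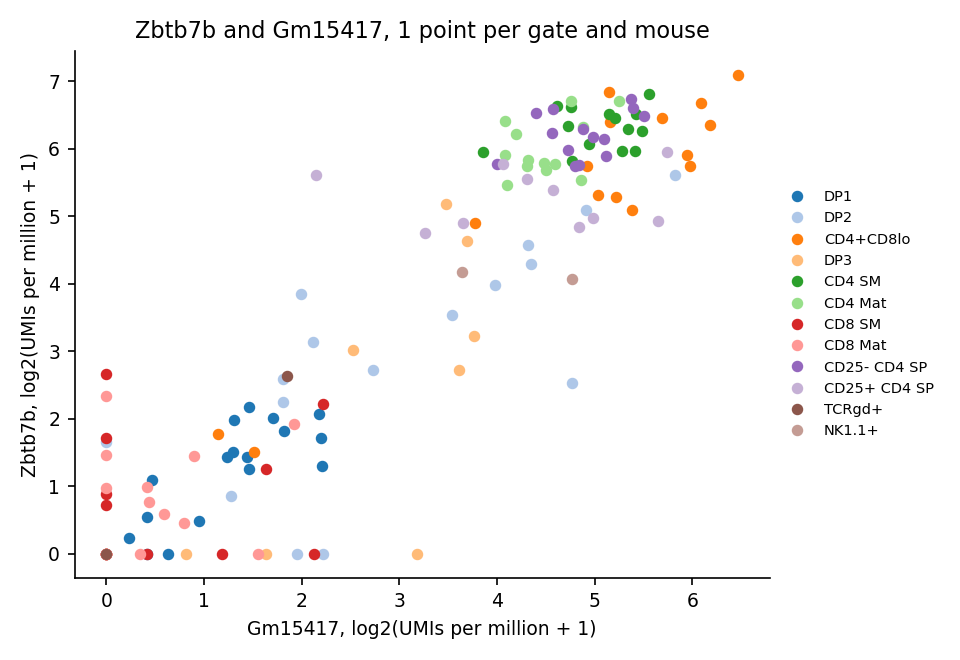
Zbtb7b against Gm15417 in log2(CPM + 1), 1 point per antibody gate and mouse with at least 20 cells, colored by gate. CD4+CD8lo and CD4 gates lie at the upper right and DP1 and CD8 gates at the lower left, with CD4+CD8lo sums of MHCII-/- mice among the latter.

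Outside the conventional CD4 lineage, regulatory cells were gated first, as CD25+ cells among CD4 SP cells. CD25 is the interleukin-2 receptor chain of regulatory T cells, and Foxp3, their defining factor, was at 259 CPM in CD25+ and 5.16 CPM in CD25- cells of wild-type mice, in 49.7% and 1.77% of cells. Zbtb7b in CD25+ cells of replicates 1 to 5 was 30.6, 41.0, 28.9, 61.1 and 29.4 CPM (38.2 ± 13.7), and in CD25- cells 77.8, 69.9, 53.3, 91.3 and 106.4 CPM (79.7 ± 20.3). It was lower in CD25+ cells in 5 of 5 mice (log2 difference -1.02, SE 0.24, adjusted p = 5.24e-04, edgeR; 9.11% of genes past the threshold, 3.77% higher in CD25+ and 5.34% higher in CD25- cells), although the ranges overlapped. The CD25+ sums held 35 UMIs in 181 cells. With lower antibody thresholds the difference was -0.55 (adjusted p = 0.0517), and without the mouse block -1.02 (adjusted p = 0.0799). In CD4-fated mice CD25+ cells had 25.9 to 53.5 CPM (40.2 ± 12.6, n = 5), overlapping the wild-type range, with 2 of the 5 mice below the lowest wild-type value. Of the 13 upstream factors 2 were higher in CD25+ cells, Gata3 by 0.69 and Myb by 1.56, and 5 lower, among them Runx3 (-0.90), Lef1 (-1.03) and Tcf7 (-0.94). Of the 5 CD4-lineage genes Tnfsf8 and Socs1 were higher, Cd4 was lower, and Cd40lg (52.9 against 72.3 CPM) and St8sia6 (29.7 against 22.3 CPM) were not called. Of 4 CD8-lineage genes past the filter Nkg7 and Eomes were higher, and the list medians were -0.31, 0.34 and 1.68 beside -0.09 over all genes. The 2 gates were not matched for maturity. Over pooled wild-type cells S1pr1 was at 294 CPM in CD25+ and 186 CPM in CD25- cells, and Klf2 at 708 and 612 CPM. The part of maturity in the Zbtb7b difference was not tested.

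Cells were also clustered on RNA with Zbtb7b left out, and clusters were named by marker lists. The levels in clusters are given as a description, with no test. A cluster led by Tnfrsf4, Tnfrsf9 and Foxp3, called Treg-like, had 1605 cells, with Foxp3 at 126.6 CPM against 0.452 CPM in all other cells. Its Zbtb7b level was 36.4, 39.8, 45.002, 57.1 and 33.2 CPM in wild-type replicates 1 to 5 (42.3 ± 9.38) and 37.0 and 50.4 CPM in MHCI-/- mice. MHCII-/- mice differed, with 2.05 and 1.20 CPM, 1 UMI each in 65 and 82 cells. Those cells were not low in Foxp3 (115 CPM, in 32.7% of cells, against 132 CPM and 30.9% in wild-type mice) and were the deeper ones. Ctla4 (96.4 against 109 CPM) and Il2ra (98.7 against 103 CPM) were also near the wild-type level. The other markers on the list were lower, with Ikzf4 at 82.7 against 155 CPM, Tnfrsf4 at 313 against 506 CPM and Tnfrsf18 at 266 against 407 CPM. Coreceptor protein went against the usual CD4 phenotype of the name, since 81.0% carried high CD8a antibody and 63.9% CD4, against 11.01% and 92.8% in wild-type mice. Among CD4 antibody-positive cells of the cluster, MHCII-/- mice had 2 UMIs in 94 cells (2.59 CPM), where wild-type mice had 49.7 CPM in 733 cells. CD4 antibody-negative cells had 0 UMIs in 113 cells over all mice, which at 3 counts allows up to 3.01 CPM. With a coarser clustering the Treg-like class held 613 cells. Wild-type mice then had 35.6 ± 18.1 CPM (SD, n = 5), the lowest mouse at 10.7 CPM.

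NKT-like cells were a cluster of 394 cells named by its high mean marker score, with none of its markers among the 10 leading genes, which began with S100a6, S100a4 and Ccl5. Zbtb16, the factor that defines NKT cells, stood at 119 CPM there and at 0.249 CPM in all other cells. Zbtb7b stood at 28.9, 30.4, 26.2 and 18.8 CPM in the 4 wild-type mice with at least 20 such cells (26.1 ± 5.14) and at 30.4 and 37.4 CPM in MHCII-/- mice, with 74 and 83 cells. In MHCII-/- mice these cells thus stood above the CD4+CD8lo cells of the same lanes (2.43 and 1.85 CPM) and above CD8 Mat cells (0.702 and 0.509 CPM), a contrast between a cluster and gates that was not tested. With a coarser clustering the NKT-like class held 593 cells, and no mouse with at least 20 of them was above 24.7 CPM. Both CD4 antibody-positive and -negative NKT-like cells held the RNA. Over all mice the level was 33.4 CPM (95% interval 27.2 to 40.6) in CD4 antibody-positive and 23.9 CPM (15.9 to 34.5) in CD4 antibody-negative NKT-like cells, and 26.4 and 27.7 CPM in wild-type mice alone. In MHCI-/- mice 24 cells fell in the cluster with Zbtb16 at 6.35 CPM against 101 CPM in wild-type mice, so that there the data go against the name, and their Zbtb7b (50.8 CPM, 8 UMIs) is not read as that of NKT cells. Cells gated by NK-1.1 antibody, which NKT and NK cells carry, were few, with 5 UMIs in 18 wild-type cells (45.9 CPM, 95% interval 14.9 to 107), 7 in 71 CD4-fated cells and 4 in 41 CD8-fated cells. All intervals cover counting error only.

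Gamma-delta cells were looked for by antibody and by cluster. The TCR gamma-delta antibody marked 38 wild-type cells, in which Trdc, the delta constant gene, stood at 1479 CPM and Zbtb7b had 0 UMIs, which at 3 counts allows a share of cells with a UMI of up to 7.89% and a level of up to 8.58 CPM, so that a low level was not detectable at this depth. There were 2 UMIs in 78 such cells of CD4-fated and 1 UMI in 25 of CD8-fated mice. A cluster led by Maf, Cpa3 and Blk, with Trdc at 960 CPM and Sox13 at 320 CPM, met the marker list for gamma-delta T-like cells and held 12 UMIs in 2067 cells (1.03 CPM). Only 23 of its cells were wild-type, and 471, 335 and 1210 came from AND, OT-II and OT-I mice, where the antibody marked 0, 68 and 4 cells, so the surface receptor goes against the name in most of them. AND mice also lacked Rag1 and cannot assemble a gamma-delta receptor, which goes against the name for all 471 of their cells. The level of the cluster was 1.62 and 4.20 CPM in AND, 0.674 and 0 in OT-II and 0.782 and 0.507 CPM in OT-I mice. The 117 cells with CD4 antibody had 8.41 CPM (95% interval 3.63 to 16.6) and the 1950 without it 0.374 CPM (0.102 to 0.958).

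CD8 SP-like cells were 2 clusters that differed in Zbtb7b. The cluster led by Nkg7, Ctsw and Itgae, with CD4 antibody on 8.54% and high CD8a antibody on 96.8% of its cells, had 0.631 CPM in 3232 cells. The cluster led by Tesc and Cd226, had 7.41 CPM in 4562 cells. Its coreceptors go against the name, with CD4 antibody on 91.2% and high CD8a antibody on 57.5% of cells. Split by antibody over both, CD4-positive cells had 7.57 CPM (95% interval 6.51 to 8.75) and CD4-negative cells 0.559 CPM (0.326 to 0.896), although the latter were the deeper ones. Wild-type mice had 3.29 ± 1.24 CPM in the class (n = 4), and with a coarser clustering 1.17 CPM. MHCII-/- mice had 0.312 and 0.611 CPM and OT-I mice 8.11 and 17.02 CPM, the latter from 2 UMIs in 31 cells (95% interval 2.06 to 61.5). The few such cells of CD4-fated mice, 346 in all, had 28.5 CPM. With the coarser clustering, where the class held 3237 cells in place of 7794, no mouse was above 3.07 CPM. Other classes served as a scale, from 1.08 CPM in quiescent DP-like cells, which express Rag1, and 8.04 CPM in negative selection-like cells to 59.9 CPM in mature SP-like cells. The highest cluster, at 98.1 CPM over 4138 cells, was led by Itm2a, Id2 and Ckb and had CD4 antibody on 99.9% of cells. It was left unnamed, since the signaled DP list (Itm2a) and the CD4 SP list (Cd40lg) tied among its leading genes.

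**Figure D5:**
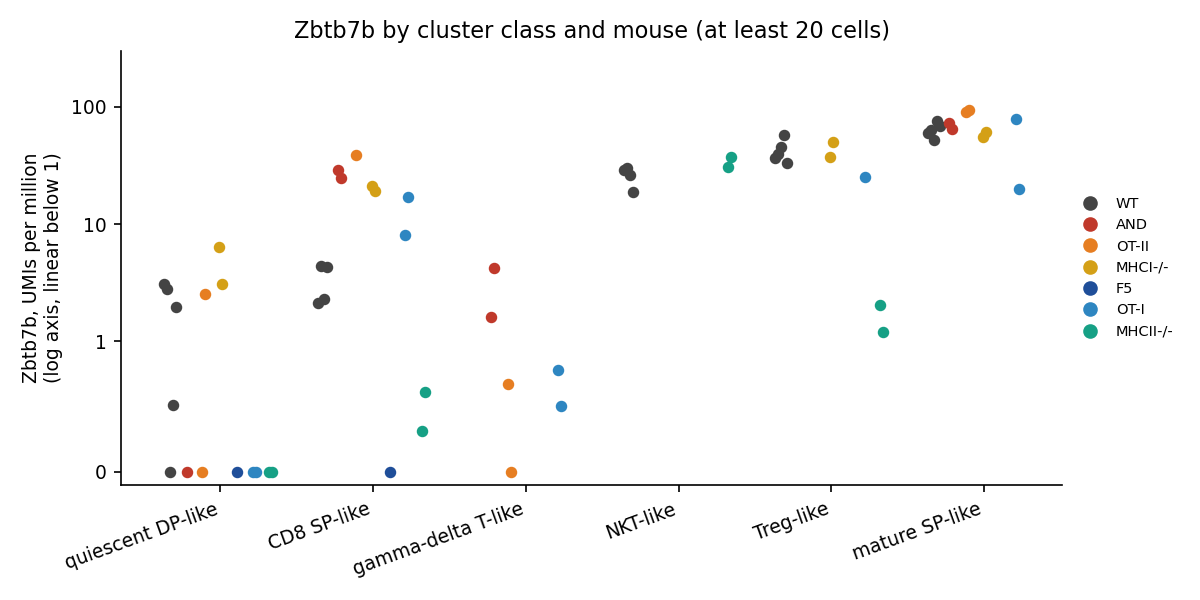
Zbtb7b in CPM (log axis, linear below 1) by cluster class, 1 point per mouse with at least 20 cells of the class, colored by genotype. NKT-like cells of MHCII-/- mice lie at 30.4 and 37.4 CPM while their Treg-like and CD8 SP-like cells lie at 2.05 CPM or below.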

How the data were processed

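The authors deposited counts of UMIs per gene or antibody and barcode for each lane, without normalization, after alignment to mm10 (per the labels' processing notes, Cell Ranger 3.1.0). Pooled matrices that repeat the lanes were not used. Cells were kept with at most 15% mitochondrial UMIs, at least 200 genes, 1000 to 10000 antibody UMIs and at least 70 of 111 antibodies; the 3.90% with the highest doublet scores were removed (0.8% per 1000 barcodes). Gates were set on log2(antibody UMIs per 10000 + 1). The CD69 and TCRb cutoffs were 5 and 6 in the first and second experiment and 4.5 and 5.5 in the third. Cutoffs for CD127, TCR gamma-delta and NK-1.1 were set per lane. UMIs were summed per mouse and gate of at least 20 cells and tested in edgeR 4.0.16 (R 4.3.3) over all genes, with TMM scaling, its low-count filter, and the family (between fates) or the mouse (between gates) as covariate; DESeq2 1.42.0 was an alternative. SEs were back-calculated from F, and the tests were checked on simulated data. Clusters used leidenalg 0.10.2 on 30 components of 2000 genes at resolution 1. The gene was described in full; genes named beside it were the 8 most alike and members of listed pathways, except Cd8a and Cd8b1 as the most opposed, cluster-leading genes, and stage markers, chosen after their values were seen. The gene and the lists were chosen with earlier results of these data known.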

Additional observations from a re-analysis of the deposited data

Results flagged for a closer look

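In the DP3 gate of wild-type mice, replicate 5 stood apart at 35.4 CPM (7 UMIs in 79 cells), where the next highest of the 5 mice had 8.40 CPM, a gap of 0.763 of the whole range. It had a median of 2039 UMIs per cell in that gate. Its DP3 cells also had Myb and Gata3 at 248 CPM each, where every other wild-type mouse had at most 71.4 and 105 CPM. Nkg7 was at 60.8 CPM, where the others had at least 135 CPM. Runx3 (152 CPM) and Cd4 (233 CPM) lay within the range of the others. The part of depth or of the mix of cells in the value was not tested. Without replicate 5 the log2 difference of Zbtb7b between DP3 and CD4+CD8lo cells was -2.89 (adjusted p = 3.35e-04, edgeR). Replicate 5 was the 1 such mouse among 22 groups of 4 to 10 mice looked at, and chance alone marks about 1 group in 20.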

How the results depend on the processing

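Over 257 recomputed values (131 of them leaving out 1 mouse), none changed direction, 226 kept their call or moved within the spread, 27 lost a call, 3 gained one and 1 moved. The log2 difference between fates in DP2 was 2.28, with 2.60 under DESeq2, 2.26 without the low-count filter, and 1.70 to 2.75 leaving out 1 mouse. In CD4+CD8lo cells it was 2.93, with 2.41 without the family covariate, 3.09 without CD69 in the gate, and 2.52 to 3.40 leaving out 1 mouse. DP2 against DP1 in wild-type mice gave 1.53 under DESeq2 and 1.03 to 2.22 leaving out 1 mouse. Without the mouse block DP3 against CD4+CD8lo was -2.37 and CD25+ against CD25- was -1.02; lower antibody thresholds gave -0.55 for the latter. The differences in thinned shares, in percentage points, were 0.122 and 0.484 in DP1 and 10.8 and 21.0 in CD4+CD8lo at 1500 and 4000 UMIs, and leaving out 1 mouse (added after seeing the data) gave 0.391 to 0.560 in DP1, 1.86 to 3.50 in DP2 and 13.7 to 22.2 in CD4+CD8lo, where smaller groups also raise the smallest p. CD8 SP-like cells of wild-type mice had 1.17 CPM at resolution 0.6. Other causes were not tested. Correlations of deviations between mice of the same replicate number were 0.73 to 0.88 in the OT family and -0.04 to 0.57 in the others, so the numbers were not taken to pair the mice throughout; with a replicate block the differences between fates were 2.31 in DP2, 2.82 in CD4+CD8lo, 0.58 in CD4 SM and 0.69 in CD4 Mat, and no call changed. DP1, DP3, CD8 SM and CD8 Mat between fates were too sparse for most alternatives, as was DP2 with raised thresholds.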

Other observations

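Beyond the cell types above, a few B-like cells (101 cells, led by Igkc, Cd79a and Cd74) held 5 Zbtb7b UMIs (11.7 CPM), cycling-like cells 2.84 CPM and interferon-like cells, led by Ifit1 and Isg15, 60.1 CPM. Among cycling-like cells the cluster led by Igfbp4 had 15.6 CPM in 903 cells and the other 3 clusters 0.240 to 0.862 CPM. A cluster of 638 cells led by S100a9, S100a8 and Hbb-bs, genes of granulocytes and red cells, met no name and had 32.5 CPM. CD4 antibody was on 51.3% and high CD8a antibody on 34.3% of its cells. Its level is thus not read as that of granulocytes or red cells, and the part of thymocytes in it was not tested. A cluster of 1080 cells led by Tcrg-C1, Tcrg-C2 and Il2ra had 4 UMIs (0.271 CPM).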
